A study of Mus musculus with 8 samples.

Results

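Microglia are the resident macrophages of the brain, and 32 genes that they express more than other hippocampal cells were followed through all 8 libraries of a hippocampal RNA sequencing experiment. The genes were taken as a list by name, chosen with earlier results of these data known, so their direction is not independent evidence. All 32 were found among the 24498 genes of the deposited table. Of the 32, 30 had a mean of at least 10 normalized read counts over the 8 libraries. These entered the tests, of 12681 tested genes in all. The 2 that did not, P2ry6 and Cd14, averaged 7.51 and 3.63 normalized read counts. Their list name, microglia identity and activation genes, covers both receptors of resting microglia and genes of phagocytosis and defence.

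The study crossed 2 vectors with 2 training states in male C57BL/6J mice that were 10 to 12 weeks old. All mice received an adeno-associated virus, AAV2/9, in the dorsal hippocampus, and all vectors expressed EGFP from a CMV promoter. The knockdown vector (AAV2/9.U6.shACSS2.CMV.EGFP) also carried a hairpin RNA against Acss2 under a U6 promoter, and the control vector (AAV2/9.CMV.EGFP.polyA) had EGFP alone, so the control carried no hairpin of any kind. The Acss2 product, acetyl-CoA synthetase, joins acetate to coenzyme A. At 3 weeks after injection, mice were either trained in spatial object recognition (SOR), with 3 objects in 3 trials of 6 min, and killed 30 min later, or kept as home cage controls. The 4 groups were trained knockdown (KD.249 with KD.251), home cage knockdown (KD.253 and KD.255), trained control (eGFP.250 and eGFP.266) and home cage control (eGFP.254 and eGFP.268), with 2 libraries each. Library names are shortened from the table's headers. How many mice went into a library is not stated in the labels, so the p-values measure only the spread between libraries, which may be technical. The vectors reached cells of the injected region only as far as the virus entered them, and which cells carried it was not measured in these files.

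Depth set the limits of what follows. Reads in genes numbered 6537749 to 9863728 in 6 libraries, against 1484318 in KD.251 and 272456 in KD.255. A single read was worth 15.6 normalized read counts in KD.255 and 2.88 in KD.251, against 0.444 to 0.659 elsewhere, and a count of 0 allowed up to 46.7 (3 reads) in KD.255. The 32 genes held only 248 reads in KD.255, where 25 of them had under 10 reads and 3 had none, and such limits cover counting error only. The targeted gene Acss2 had 25.6, 57.7, 25.0 and 15.6 normalized read counts in KD.249, KD.251, KD.253 and KD.255, against 87.4, 67.5, 58.2 and 82.0 in eGFP.250, eGFP.266, eGFP.254 and eGFP.268. Every knockdown library was below every control library, KD.251 only just. The value in KD.255 was a single read, where even a count of 0 allowed up to 46.7, so the level of the target in KD.255 was poorly resolved. KD.251 had the highest measured level of the target among the knockdown libraries and was shallower than all but KD.255. Main results for the genes as a set are given with KD.251 and, where that matters, without it. Log2 differences of single genes are mainly given with it, beside the values in each library.

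Microglia depend on the receptor CSF1R for survival and on the transcription factor PU.1, the product of Spi1, for their identity. In the healthy brain they survey the tissue through purinergic and chemokine receptors such as P2RY12 and CX3CR1. When activated they engage receptors that signal through the ITAM adaptors TYROBP and FCER1G, raise lysosomal proteases and present antigen. In a homogenate of whole tissue, more cells of a type and more RNA per cell cannot be told apart.

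The microglia genes stood higher in the knockdown libraries as a group, and the number that passed a test over all genes depended on the test: 0 with limma, 4 with edgeR, 11 with DESeq2 and 25 with library weights in limma (6.47% of all tested genes), of 30. They took 1076, 625, 1163 and 910 of every 1000000 gene reads in KD.249, KD.251, KD.253 and KD.255, against 491, 454, 513 and 514 in eGFP.250, eGFP.266, eGFP.254 and eGFP.268. All 4 knockdown values lay above all 4 control values, and KD.251 was nearest to the controls. Averaged over training, 29 of 30 tested genes had a difference above 0 with limma, against 44.3% of all tested genes. The median log2 difference over the 30 was 0.68, with a range from -0.07 for P2ry13 to 1.66 for Itgb2, against a median of -0.03 over all tested genes. These differences are on the scale log2(normalized read count + 1), on which the differences of low genes are understated.

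With limma, 0 of the 30 genes passed a Benjamini-Hochberg adjusted p of 0.05, against 0.103% of all tested genes that passed as higher, and 17 had an unadjusted p under 0.05, against 5.59% of all tested genes. Unadjusted, 25 had a p under 0.05 with edgeR and 24 with DESeq2, against 7.85% and 7.03% of all tested genes. The smallest adjusted p was 0.110, for Ctss. With edgeR on the recovered reads, 4 of 30 passed as higher (Ctss, Mpeg1, Itgb2 and Fcgr3), against 0.915% of all tested genes, and none as lower, against 0.0473%. With DESeq2 on the same reads 11 passed as higher, against 1.3% of all tested genes. Single libraries decided many calls. Without KD.251 limma passed 5 of the 30 (Ctss, Unc93b1, Itgam, Mpeg1 and Ptprc), against 0.789% of all tested genes in either direction, and edgeR 12, against 1.88%. Without KD.253 edgeR passed 0 of the 30, against 0.134%, and without KD.249 it passed Ctss alone, against 0.213%. Without KD.255 it passed 2, against 0.781%, and without 1 of the control libraries 1 to 3, against 0.576% to 1.22%. The libraries eGFP.266 and eGFP.268 carry higher numbers than the rest, and what the numbers stand for is not stated. With this pair set apart by a term of its own, edgeR passed Ctss alone, against 0.891%, and limma none, and the same held on the 6 libraries other than this pair (1.29% with edgeR). The calls therefore differed between the tools, while the side of 0 did not, apart from P2ry13, which had a log2 difference of 0.07 with edgeR.

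A count over libraries that needs no model gave a like picture. In 9 of 30 genes (Csf1r, Aif1, Itgb2, Ctss, Fcgr3, Spi1, Ly86, Mpeg1 and Unc93b1) every knockdown library was above every control library, which held for 2.28% of all tested genes. None of the 30 had every knockdown library below every control library, against 1.98% of all tested genes. Without KD.251 the groups separated upward in 17 of 30 genes, against 4.91% of all tested genes, and without KD.251 and KD.255 in 22 of 30, against 10%. Leaving out a library can only keep or raise such a count, most so where that library is the lowest, as KD.251 often was. Counts without KD.249, KD.253 or KD.255 alone were not made. KD.251 was the lowest of the knockdown libraries in 18 genes and lay within or below the range of the controls in 14. Neither count was made over all tested genes, so neither can be read as particular to the microglia genes. The median of the 30 genes relative to the control mean was 0.96, 0.19, 1.01 and 0.82 (log2) in KD.249, KD.251, KD.253 and KD.255, against -0.04, -0.14, 0.08 and 0.07 in the control libraries eGFP.250, eGFP.266, eGFP.254 and eGFP.268.

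**Figure D1:**
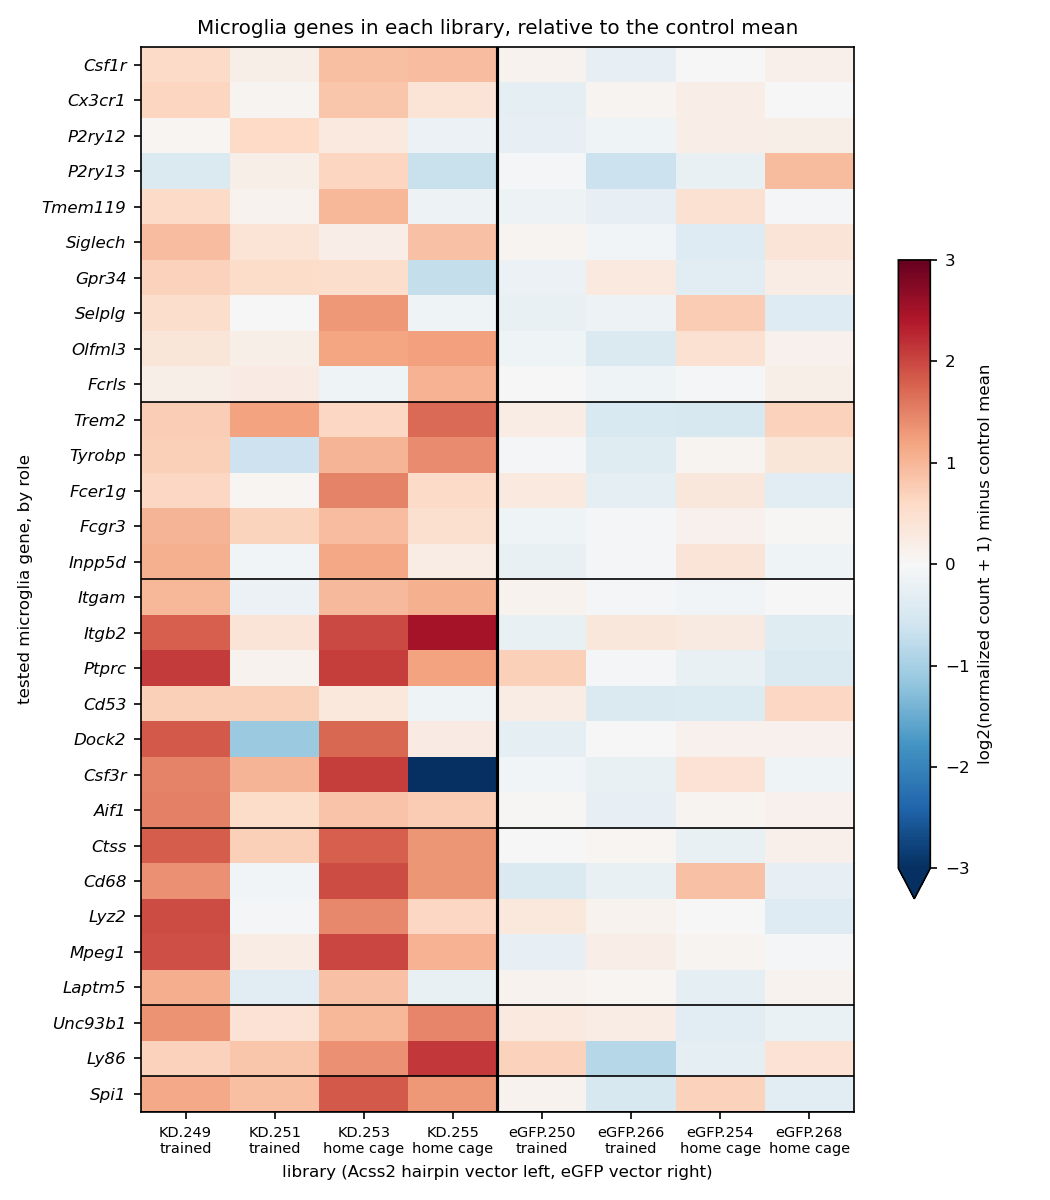
Level of each of the 30 tested microglia genes (vertical axis, grouped by role) in each library (horizontal axis, knockdown left, control right), coloured by log2(normalized read count + 1) minus the mean of the 4 control libraries. KD.253, KD.255 and KD.249 are mostly red, with medians of 1.01, 0.82 and 0.96, and KD.251 is paler, with a median of 0.19. Csf3r in KD.255, at 0 reads, lies beyond the end of the colour scale.

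The roles differed in size, with the homeostatic receptors and surface markers lowest by their median, though not in each gene. The median log2 difference with limma was 0.40 for 10 homeostatic receptors and surface markers (9 above 0), 0.68 for 5 ITAM receptors and their signalling genes, 0.72 for 7 leukocyte adhesion, motility and receptor genes, 1.15 for 5 lysosomal and killing genes and 1.16 for 2 genes of endotoxin and Toll-like receptor handling. With edgeR the same medians were 0.56, 0.88, 1.41, 1.37 and 1.05. No difference between the roles was tested.

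**Figure D2:**
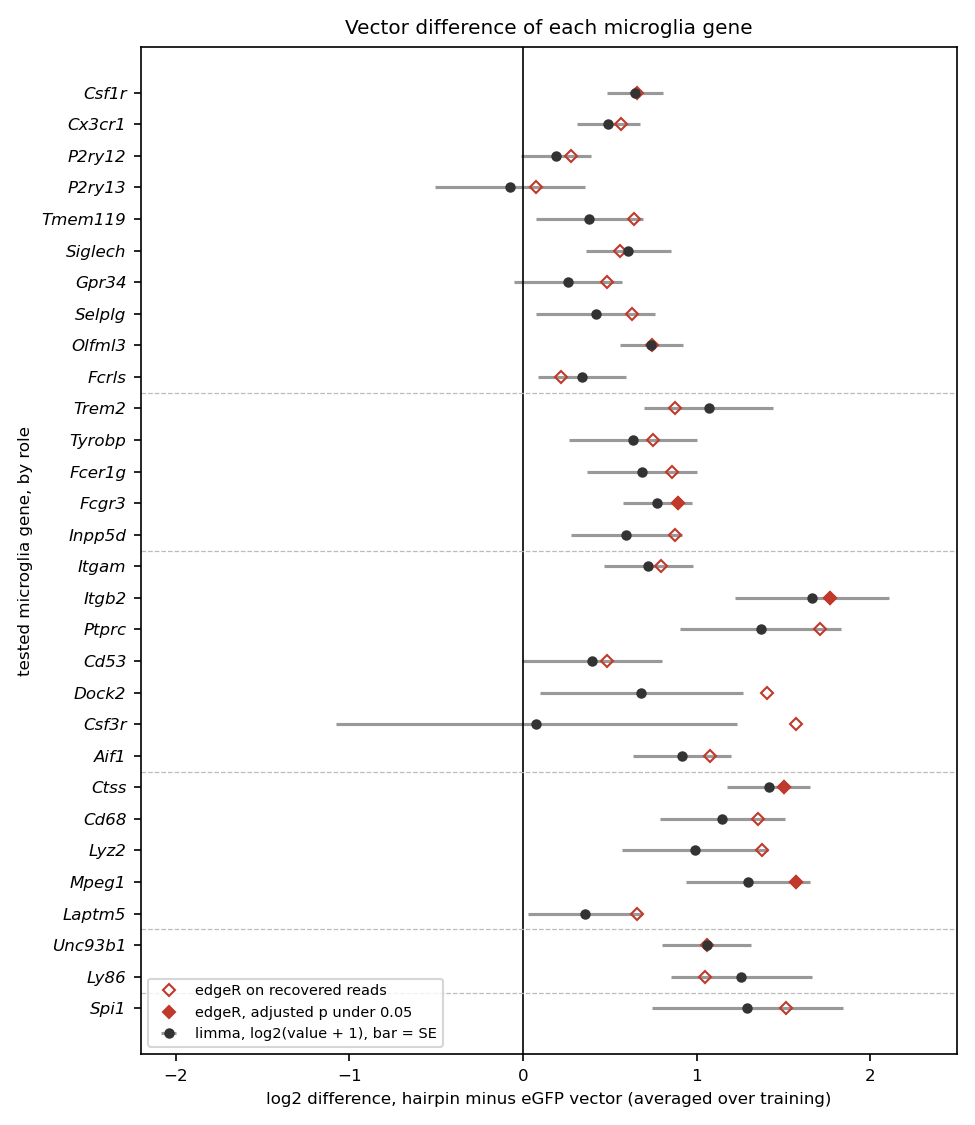
Log2 difference of each tested microglia gene, knockdown minus control and averaged over training (horizontal axis), by gene and role (vertical axis, dashed lines between roles), with limma estimates as black points with bars of 1 SE and edgeR estimates as diamonds. Filled diamonds mark the 4 genes with an edgeR adjusted p under 0.05 (Fcgr3, Itgb2, Ctss and Mpeg1), and Csf3r has the widest bar, with an SE of 1.16.

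Among the homeostatic receptors, Csf1r, the receptor for CSF1 and IL-34, had 284, 213, 353 and 358 normalized read counts in KD.249, KD.251, KD.253 and KD.255, against 202, 159, 188 and 209.8 in eGFP.250, eGFP.266, eGFP.254 and eGFP.268. The knockdown libraries were all higher, KD.251 by a narrow margin, and the log2 difference was 0.65 (SE 0.16, limma adjusted p = 0.348, edgeR adjusted p = 0.108). In the GENCODE M21 annotation 15.1% of the exon bases of Csf1r are also covered, on the opposite strand, by exons of Hmgxb3, and reads from the pair cannot be told apart if counting ignored strand. Olfml3, a secreted olfactomedin-like protein enriched in microglia, had 93.1, 80.8, 163 and 171 in the same knockdown order, against 65.2, 52.6, 98.3 and 78.9 in the controls. Its groups overlapped, because home cage libraries were higher than trained ones under either vector, and the additive model gave 0.74 (SE 0.18, limma adjusted p = 0.337).

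Cx3cr1, the receptor for the neuronal chemokine fractalkine, had 292, 196, 332 and 248.8 in KD.249, KD.251, KD.253 and KD.255, against 151, 198, 216 and 187 in the controls. All knockdown libraries except KD.251 were above the controls, and the log2 difference was 0.49 (SE 0.18, limma adjusted p = 0.811). Tmem119, a membrane protein used as a microglia marker, had 52.2, 37.5, 69.9 and 31.1 in the knockdown libraries, against 31.0, 29.2, 47.7 and 33.3 in the controls. Its groups overlapped, with a log2 difference of 0.38 (SE 0.31, limma adjusted p = 0.873).

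The ADP receptors P2ry12 and P2ry13 had small differences. With edgeR, P2ry12 was at 0.27, above Fcrls at 0.22. P2ry12, an ADP receptor of surveying microglia, had 164, 239, 193 and 140.0 in KD.249, KD.251, KD.253 and KD.255, against 134, 144, 183 and 178 in the controls. It averaged 184 ± 42.7 with the hairpin and 159.7 ± 24.7 with eGFP alone (SD, n = 4 each), and the groups overlapped. Its highest value was in KD.251, the knockdown library that was lowest of its vector for most other tested microglia genes. The log2 difference was 0.19 (SE 0.20, limma adjusted p = 0.880).

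P2ry13, its neighbour on chromosome 3 and also an ADP receptor, had 18.4, 28.8, 40.2 and 15.6 in the knockdown libraries, against 24.3, 15.8, 21.5 and 49.7 in the controls, and the value in KD.255 was a single read. Each group held both low and high libraries, and the log2 difference was -0.07 (SE 0.43, limma adjusted p = 0.991). Gpr34, a receptor for lysophosphatidylserine, had 82.9, 75.0, 73.8 and 31.1 in the knockdown libraries, against 45.5, 62.7, 40.1 and 60.3 in the controls. The knockdown libraries other than KD.255 were above every control, and KD.255 was below every control on 2 reads (log2 difference 0.26, SE 0.31, limma adjusted p = 0.898). P2ry6, a UDP receptor linked to phagocytosis, was not tested and had 6.65, 11.5, 13.8 and 0 in the knockdown libraries, against 9.82, 2.87, 12.2 and 3.10 in the controls. The 3 other homeostatic genes, the lectins and surface proteins Siglech, Selplg and Fcrls, had log2 differences of 0.61, 0.42 and 0.34 with limma, and none passed any of the 3 tests.

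The ITAM group holds receptors that signal through short tyrosine motifs of an adaptor chain. Trem2, a lipid-sensing receptor of that kind, had 39.4, 54.8, 36.2 and 77.8 in KD.249, KD.251, KD.253 and KD.255, against 27.4, 16.7, 16.3 and 38.1 in the controls. KD.253 lay just under the highest control, the other knockdown libraries lay above all controls, and the log2 difference was 1.07 (SE 0.37, limma adjusted p = 0.741). Tyrobp, the adaptor of TREM2, had 37.9, 14.4, 46.8 and 62.2 in the knockdown libraries, against 21.7, 17.2, 23.8 and 29.3 in the controls. Here 3 knockdown libraries were above every control and KD.251 was below every control (log2 difference 0.64, SE 0.37, limma adjusted p = 0.873).

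Fcgr3, a low-affinity receptor for immunoglobulin G, rose by the edgeR test. It had 115, 89.4, 107 and 77.8 in KD.249, KD.251, KD.253 and KD.255, against 51.2, 53.6, 61.6 and 57.7 in the controls, with no overlap. KD.255 had the lowest knockdown value, but on 5 reads, so its order against KD.251 was not resolved. It averaged 97.3 ± 16.8 with the hairpin and 56.0 ± 4.61 with eGFP alone (SD, n = 4 each), with a log2 difference of 0.77 (SE 0.20, limma adjusted p = 0.371) and 0.89 with edgeR (adjusted p = 0.0477, between 0.00053 and 0.982 over the alternatives). Fcgr3 belongs to a family of similar receptors, and reads shared within such a family may be split in ways the table does not show. Fcer1g, the adaptor chain of Fc receptors, and Inpp5d, the phosphatase SHIP1 that limits this signalling, had log2 differences of 0.68 (SE 0.31) and 0.60 (SE 0.32) with limma, with KD.251 within the range of the controls in both.

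Among the leukocyte adhesion and motility genes, Itgb2 rose by the edgeR test. It encodes the integrin chain CD18, the partner of CD11b in complement receptor 3, and had 47.1, 17.3, 54.0 and 77.8 in KD.249, KD.251, KD.253 and KD.255, against 10.9, 16.7, 15.7 and 9.76 in the controls. The groups did not overlap, though KD.251 stood just above the highest control, and KD.255 held only 5 reads. Itgb2 averaged 49.1 ± 24.9 with the hairpin and 13.3 ± 3.47 with eGFP alone (SD, n = 4 each), with a log2 difference of 1.66 (SE 0.45, limma adjusted p = 0.421) and 1.77 with edgeR (adjusted p = 0.0424, between 0.00010 and 0.982 over the alternatives).

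Its partner chain Itgam, CD11b, had 219.6, 98.1, 219 and 233 in the knockdown libraries, against 119, 106, 104 and 112 in the controls. The knockdown libraries other than KD.251 lay far above the controls and close together, and KD.251 lay below every control (log2 difference 0.72, SE 0.26, limma adjusted p = 0.779). In GENCODE M21, 68.7% of the exon bases of Itgam are shared on the same strand with a second gene model, Gm49368, so the value of Itgam depends on the annotation used for counting, which is not given in the sources used here. Ptprc, the pan-leukocyte phosphatase CD45, had 117, 28.8, 115 and 62.2 in the knockdown libraries, against 44.0, 25.4, 22.7 and 19.5 in the controls. Again KD.251 alone lay within the range of the controls (log2 difference 1.37, SE 0.46, limma adjusted p = 0.715).

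Aif1, the actin-bundling protein IBA1 widely used to stain microglia, had 79.8, 40.4, 50.1 and 46.7 in KD.249, KD.251, KD.253 and KD.255, against 27.9, 23.0, 29.1 and 29.7 in the controls. Its groups did not overlap, though KD.255 rested on 3 reads, and the log2 difference was 0.92 (SE 0.28, limma adjusted p = 0.605, edgeR adjusted p = 0.111). Csf3r, the receptor for G-CSF, had 52.2, 37.5, 79.7 and 0 in the knockdown libraries, against 17.1, 15.3, 25.0 and 16.4 in the controls. The 3 knockdown libraries with reads lay above every control, while the 0 in KD.255 allows up to 46.7, and limma, which takes the 0 at face value, gave 0.08 (SE 1.16, adjusted p = 0.997), against 1.57 with edgeR (adjusted p = 0.0832). Cd53, a leukocyte tetraspanin, and Dock2, a Rac activator of leukocyte migration, had limma log2 differences of 0.40 (SE 0.40) and 0.68 (SE 0.58).

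The lysosomal and killing genes included Ctss. This gene encodes cathepsin S, the lysosomal cysteine protease that processes the invariant chain for antigen presentation, and was the most abundant of the 32 genes per length of transcript, at 509 normalized read counts per kilobase of exon over the 8 libraries, ahead of Cd68 at 70.0 and P2ry12 at 67.5. It had 1294, 594, 1263 and 918 normalized read counts in KD.249, KD.251, KD.253 and KD.255, against 367, 379, 309 and 407 in eGFP.250, eGFP.266, eGFP.254 and eGFP.268. The lowest knockdown library, KD.251, was well above the highest control. Ctss averaged 1017 ± 329.6 with the hairpin and 366 ± 41.0 with eGFP alone (SD, n = 4 each), with a log2 difference of 1.42 (SE 0.24, limma adjusted p = 0.110). It rose by edgeR, by 1.50 (adjusted p = 0.0057, up to 0.537 over the alternatives).

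Mpeg1, the pore-forming protein perforin-2 of macrophages, had 374, 113, 390.2 and 202 in the knockdown libraries, against 81.7, 112, 104 and 93.1 in the controls. The groups did not overlap, but KD.251 exceeded the highest control only slightly. Mpeg1 averaged 269.6 ± 135 with the hairpin and 97.7 ± 13.3 with eGFP alone (SD, n = 4 each), with a log2 difference of 1.30 (SE 0.36, limma adjusted p = 0.451), and it rose by edgeR, by 1.57 (adjusted p = 0.0309, between 3e-08 and 0.982 over the alternatives).

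Cd68, a lysosomal membrane glycoprotein of phagocytes, had 129, 46.2, 194 and 124 in the knockdown libraries, against 36.2, 42.1, 90.7 and 41.2 in the controls. The knockdown libraries other than KD.251 were above every control, KD.251 lay within the range of the controls, and among the controls eGFP.254 stood well above the other 3. The log2 difference was 1.15 (SE 0.36, limma adjusted p = 0.640). Lyz2, lysozyme of macrophages, differed by 0.99 (SE 0.42) and has a near-identical copy, Lyz1, to which reads may also align. Laptm5, a lysosomal transmembrane protein, differed by 0.36 (SE 0.33), with KD.255 and KD.251 both inside or below the range of the controls.

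**Figure D3:**
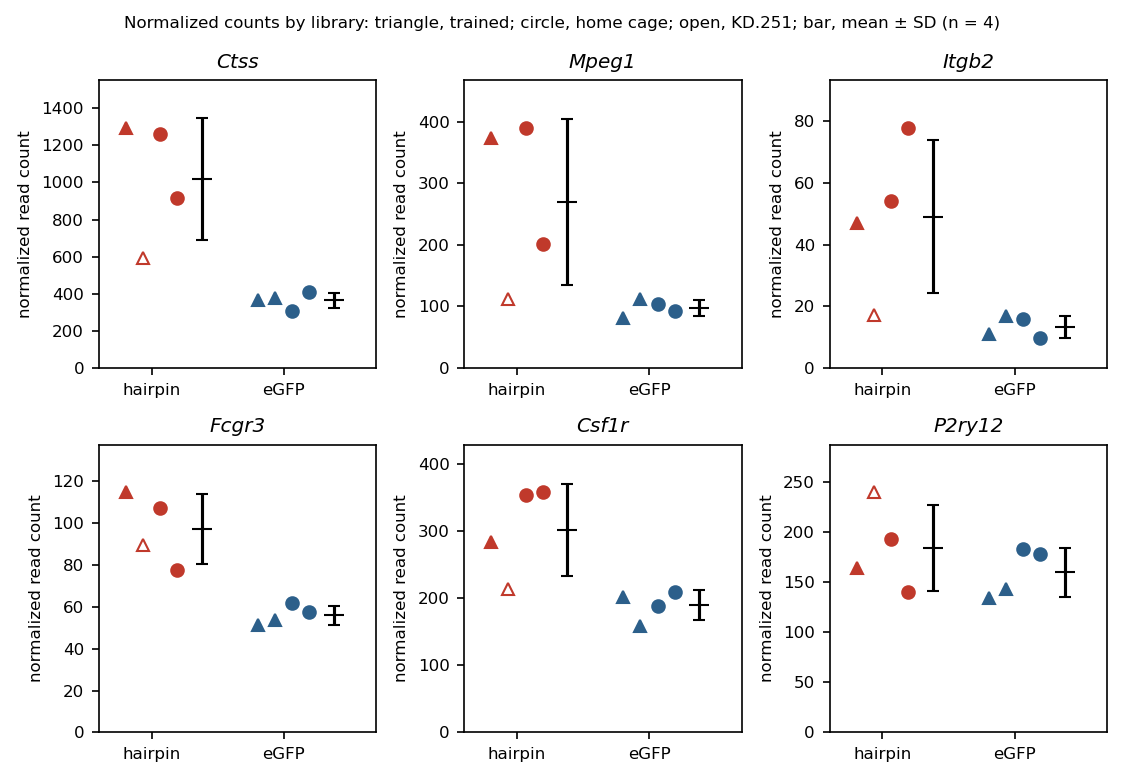
Normalized read counts (vertical axes, from 0) of 6 microglia genes in the 4 knockdown libraries (hairpin, left) and the 4 control libraries (eGFP, right), with circles for home cage, triangles for trained, an open triangle for KD.251, and bars for the mean ± SD. Ctss separates the vectors by the widest margin (594 to 1294 in knockdown, 309 to 407 in control libraries), and P2ry12 overlaps (140.0 to 239 and 134 to 183).

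Of the genes of endotoxin and Toll-like receptor handling, 2 were tested. Unc93b1, the chaperone that brings nucleic acid-sensing Toll-like receptors to the endosome, had 213, 113, 167 and 233 in KD.249, KD.251, KD.253 and KD.255, against 102, 97.1, 67.5 and 72.7 in the controls. The groups did not overlap, and the log2 difference was 1.06 (SE 0.26, limma adjusted p = 0.333, edgeR adjusted p = 0.0560). Ly86, also called MD-1, the partner of the Toll-like protein CD180, had 34.3, 37.5, 55.4 and 93.3 in the knockdown libraries, against 34.1, 11.0, 16.9 and 28.4 in the controls. KD.249 was only just above the highest control, and the log2 difference was 1.26 (SE 0.41, limma adjusted p = 0.688). Cd14, the endotoxin co-receptor, was not tested. It had at most 6.59 in 7 libraries and no read in KD.255, where a 0 allows up to 46.7.

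Spi1, the gene of PU.1, was close to the lower limit of the test. It had 13.8, 11.5, 23.1 and 15.6 normalized read counts in KD.249, KD.251, KD.253 and KD.255, against 6.20, 3.83, 9.89 and 4.44 in eGFP.250, eGFP.266, eGFP.254 and eGFP.268. The groups did not overlap, but KD.255 rested on a single read and KD.251 on 4, and the log2 difference was 1.29 (SE 0.55, limma adjusted p = 0.873, edgeR adjusted p = 0.126). Of 15 other tested regulators and ligands of microglia, 10 were above 0 with limma (median 0.13), against 44.3% of all tested genes. With edgeR 12 were above 0 (median 0.44), against 48.2%. Csf1 differed by 0.38 and Il34 by -0.46, both ligands of CSF1R, and none of the 15 passed limma or edgeR. Irf5, an interferon regulatory factor, passed DESeq2 (log2 difference 1.54, adjusted p = 0.0354).

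PU.1 binds DNA with an ETS core, and interferon regulatory factors bind repeats of GAAA, so the promoters of the microglia genes were searched for these letters. RefSeq promoter sequences (build GRCm38.p6, 250 bases before to 50 bases after the start) were found for 22 of the 32 genes, with 24 promoters in all, and both strands were searched. The PU.1 core GAGGAA was present in 16 of the 24 promoters (66.7%), in 15 genes, against 28.3% of 32851 promoters. The longer form GAGGAAGT, which contains the core, was present in 3 (Cd53, Ctss and Inpp5d), against 3.2% of all promoters. An interferon regulatory form, GAAA repeated after any 2 bases, was present in 2 (Aif1 and Ctss), against 3.44%, and GGAA followed after any 2 bases by GAAA, which a composite site of an ETS factor and an interferon regulatory factor can hold, in 1 (Cd68), against 2.72%. The promoters of 3 genes are shown because their vector differences ranged from high (Ctss) to low (P2ry12), with matches in capitals. P2ry13, at -0.07, holds the core at -48, while Mpeg1 and Ly86, at 1.30 and 1.26, hold none of the searched letters. Whether matches go with the size of the difference was not tested. Shown are Ctss (chr3:95526536-95526835, plus strand), Itgam (chr7:128062390-128062689, plus strand) and P2ry12 (chr3:59262936-59263235, minus strand).
Ctss: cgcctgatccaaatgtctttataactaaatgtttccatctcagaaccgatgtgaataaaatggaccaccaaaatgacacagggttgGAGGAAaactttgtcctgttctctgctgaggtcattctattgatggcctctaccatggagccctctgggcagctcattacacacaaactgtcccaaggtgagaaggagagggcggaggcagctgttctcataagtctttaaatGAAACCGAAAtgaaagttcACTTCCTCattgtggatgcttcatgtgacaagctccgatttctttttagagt
Itgam: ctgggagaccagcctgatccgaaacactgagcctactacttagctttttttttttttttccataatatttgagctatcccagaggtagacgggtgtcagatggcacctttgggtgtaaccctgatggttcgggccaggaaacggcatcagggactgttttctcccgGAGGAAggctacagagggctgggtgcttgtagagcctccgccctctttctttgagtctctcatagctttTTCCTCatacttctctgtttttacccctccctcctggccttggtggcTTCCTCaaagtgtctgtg
P2ry12: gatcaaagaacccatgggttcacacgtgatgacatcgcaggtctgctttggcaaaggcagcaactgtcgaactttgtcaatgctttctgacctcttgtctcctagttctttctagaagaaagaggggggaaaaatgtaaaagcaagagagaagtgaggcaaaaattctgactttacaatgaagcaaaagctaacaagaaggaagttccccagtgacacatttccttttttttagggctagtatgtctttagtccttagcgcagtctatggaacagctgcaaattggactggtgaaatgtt
The promoter of Ctss holds GAAACCGAAA at -21 and, on the other strand, GAGGAAGT as ACTTCCTC at -2 from the annotated start, beside a further GAGGAA at -164. Itgam holds the core once on the forward strand and at 2 places as TTCCTC. None of the searched letters lie in the window of P2ry12, which says nothing of sites elsewhere. These matches describe sequence and were not tied to binding here.

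Related lists were then read in the same comparison, where 44.3% of all tested genes were above 0 with limma, 0.103% passed limma as higher and 0.915% passed edgeR as higher. Some of these lists share tested genes with those already described. The disease-associated list includes Lyz2, the ITAM list Inpp5d, the Toll-like receptor list Ly86 and Unc93b1, and the Fc gamma receptor list Fcgr3 and Fcer1g. Sall1 and Tgfbr1 are in both the regulator list and the further homeostatic list. Of 17 tested further homeostatic genes, 15 were above 0 with limma (median 0.48) and 2 passed edgeR. C1qa, a chain of the complement initiator C1q, was the first of these, with 81.4, 37.5, 94.9 and 109 in KD.249, KD.251, KD.253 and KD.255, against 23.8, 18.2, 30.2 and 30.6 in the controls. The groups did not overlap (limma log2 difference 1.54, SE 0.29, adjusted p = 0.148), and C1qa rose by 1.65 with edgeR (adjusted p = 0.0065). C1qc rose by 1.23 with edgeR (adjusted p = 0.0479).

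Of 16 tested genes of the disease-associated microglia program, 11 were above 0 (median 0.35) and 2 passed edgeR. Clec7a, the beta-glucan receptor Dectin-1, had 72.7, 14.4, 73.8 and 93.3 in the knockdown libraries, against 4.14, 5.74, 8.14 and 4.44 in the controls. Every knockdown library was above every control (limma log2 difference 3.05, SE 0.55, adjusted p = 0.129), and Clec7a rose by 3.48 with edgeR (adjusted p = 0.0025). B2m, which encodes beta-2-microglobulin and is not particular to microglia, passed edgeR too (2.30, adjusted p = 0.0175). Axl and Apoe, a receptor and a lipid carrier of the same program, differed by 0.50 and 0.28 and passed neither. Itgax and Cst7 were too low to be tested, with 26.6, 0, 22.4 and 0 for Itgax and 32.2, 2.88, 23.1 and 0 for Cst7 in KD.249, KD.251, KD.253 and KD.255, against at most 2.39 and 1.91 in the controls. Only KD.253 and KD.249 held them at over a few reads.

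Among ITAM and Syk signalling genes, 12 of 13 tested were above 0 (median 0.69), and Pik3ap1, an adaptor between receptors and PI3 kinase, passed edgeR (2.40, adjusted p = 0.0065). Among Toll-like receptor genes 8 of 11 were above 0 (median 0.47), with Cd180 passing edgeR (1.66, adjusted p = 0.0479) and Tlr3 and Tlr7, sensors of viral RNA, at 0.79 and 0.95 without passing limma or edgeR. Tlr3 passed DESeq2 (adjusted p = 0.0074), with an edgeR adjusted p of 0.0521. All 4 tested genes of the Fc gamma receptor list were above 0, namely the receptors Fcgr1, Fcgr2b and Fcgr3 and the adaptor chain Fcer1g. Fcgr1, the high-affinity receptor, rose by 2.06 with edgeR (adjusted p = 0.0230). Of 6 tested proliferation genes 2 were above 0 with limma and 6 with edgeR, against 44.3% and 48.2% of all tested genes, and none passed. Mki67, a marker of cycling cells, had 68.6, 23.1, 71.8 and 0 in the knockdown libraries, against 18.6, 33.5, 24.4 and 18.6 in the controls. Only KD.253 and KD.249 were above the controls, and the 0 in KD.255 is under the limit of 3 reads.

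Genes of the interferon response were also higher in the knockdown libraries. The median of 14 interferon genes relative to the control mean was 4.66, 1.93, 4.47 and 3.62 (log2) in KD.249, KD.251, KD.253 and KD.255, against -0.37, 0.41, 0.21 and -0.20 in eGFP.250, eGFP.266, eGFP.254 and eGFP.268. KD.251 was the lowest knockdown library here too, while among the controls eGFP.266 had the highest interferon median and the lowest microglia median. All 14 were above 0 with limma and 7 passed it, against 44.3% and 0.103% of all tested genes. The part of the interferon response in the values of the microglia genes was not tested.

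Markers of other blood and border cells were read beside these results, since several of the 32 genes (Ptprc, Itgam, Itgb2, Lyz2, Csf3r and Cd53 among them) are shared with other leukocytes. Border macrophage markers summed to 48.1 to 77.8 normalized read counts in knockdown and 51.9 to 74.4 in control libraries. Monocyte markers summed to 381 to 502 in knockdown and 383 to 443 in control libraries, and Chil3 was at 0 in all 8. Most of these sums came from Fn1 and Vcan, matrix genes that other cells also express, with 484 and 262 of the 761 reads in KD.253. The remaining 3 were low, and higher in KD.249 and KD.253 than in every control. Plac8 had 5.12, 0, 3.95 and 0 normalized read counts in KD.249, KD.251, KD.253 and KD.255, against at most 0.444 in the controls. Ly6c2 had 1.54 and 2.64 in KD.249 and KD.253, against at most 0.478, and Ccr2 had 6.65 and 3.30, against at most 2.33, with no read of either in KD.251 or KD.255. The part of monocytes in the leukocyte genes was not tested. All 8 neutrophil markers were at 0 in every knockdown library and 6 of 8 in every control library. The summed levels of border macrophage and of neutrophil markers overlapped between vectors or were at or near 0.

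Lymphocyte markers were higher in some knockdown libraries. The 13 T and NK cell markers summed to 68.6, 8.65, 60.0 and 77.8 in KD.249, KD.251, KD.253 and KD.255, against 5.82 to 10.9 in the controls, with KD.255 resting on 5 reads. The 6 B cell markers summed to 53.2, 2.88, 94.9 and 0 in the knockdown libraries, against 1.55 to 4.78 in the controls. Most of that was Jchain, the joining chain of secreted antibodies, with 42.0, 2.88, 82.4 and 0 in the knockdown libraries, against at most 3.83 in the controls (edgeR adjusted p = 0.0112). KD.253 and KD.249 were high and KD.251 was not. The part of these cells in the leukocyte genes was not tested. Sums of astrocyte, neuron, endothelial and oligodendrocyte markers overlapped between the vectors.

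**Figure D4:**
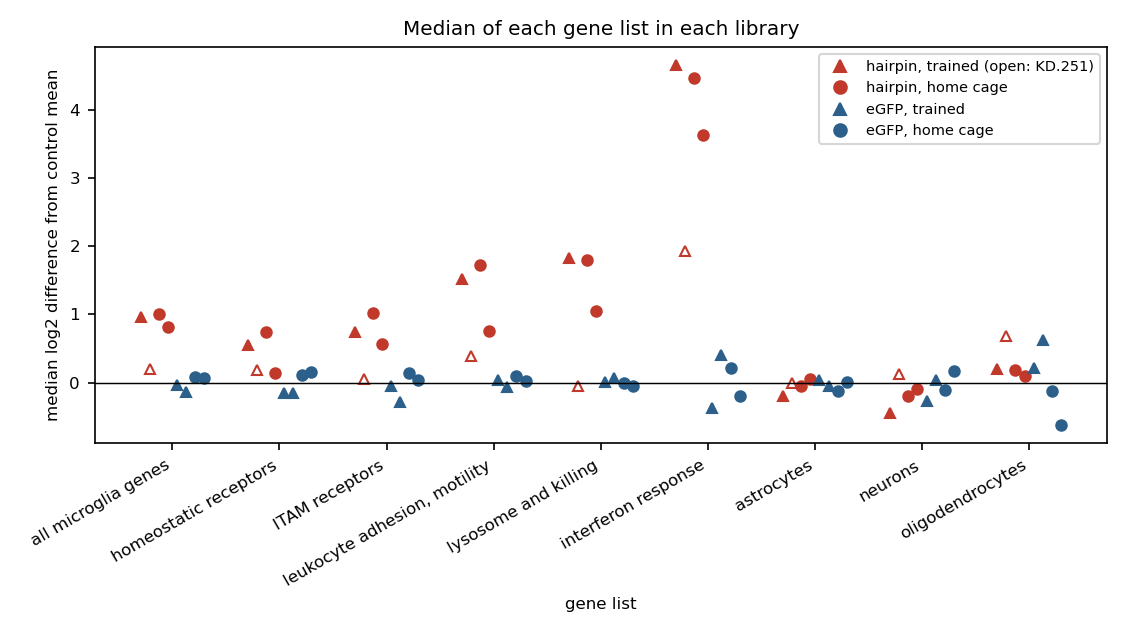
Median difference from the mean of the control libraries (vertical axis, log2) of the tested genes of each list (horizontal axis) in each library, with knockdown libraries in red to the left, control libraries in blue, circles for home cage and triangles for trained. Microglia genes lie at 0.82 to 1.01 in 3 knockdown libraries and at 0.19 in KD.251 (open), interferon genes at 3.62 to 4.66 and 1.93, and the astrocyte and neuron lists overlap between vectors, with the neuron list at -0.45 to 0.13 in knockdown and -0.27 to 0.17 in control libraries.

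Within the home cage groups, the knockdown pair was above the control pair in 25 of 30 genes with limma, against 44.8% of all tested genes, with a median of 0.85. None passed limma (0% of all tested genes), and 11 had an unadjusted p under 0.05, against 4.5%. With edgeR none passed, against 0.181% of all tested genes, with 17 at an unadjusted p under 0.05, against 3.92%. DESeq2 passed 1, Ctss, against 0.434%, with 12 at an unadjusted p under 0.05, against 2.74%. Ctss averaged 1091 in knockdown and 358 in control home cage libraries (limma log2 difference 1.60, SE 0.35), and Itgb2 had the highest difference, 2.30 (SE 0.60). Csf3r had the lowest, -1.24, with 0 reads in KD.255. The 4 other genes under 0 were P2ry13, P2ry12, Gpr34 and Cd53, and KD.255 was the lower library of the knockdown pair in each of them.

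Within the trained groups all 30 genes were above 0, against 49.3% of all tested genes, with a median of 0.63 and a range from 0.22 (P2ry13) to 1.40 (Csf3r). None passed limma, against 0.00789% of all tested genes, and 3 (Ctss, Fcgr3 and Aif1) had an unadjusted p under 0.05, against 2.36%. With edgeR none passed, against 0.0315%, with 12 at an unadjusted p under 0.05, against 4.83%, and DESeq2 passed Ctss alone as higher, against 0.244%, and none as lower, against 0.0158%. Unadjusted, 8 had a p under 0.05 with DESeq2, against 3.21%. Ctss averaged 944 in knockdown and 373 in control trained libraries (limma log2 difference 1.23, SE 0.35). Without KD.251 the median was 0.95, and without KD.249, which left the trained knockdown group to KD.251, it was 0.32.

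The difference between those effects, trained minus home cage, was itself tested. It was above 0 in 12 of 30 genes, against 52.9% of all tested genes, with a median of -0.14 and a range from -1.26 (Itgb2, SE 0.86) to 2.64 (Csf3r, SE 2.24). The sign of that median turned with single libraries. It was 0.30 without KD.251 (18 genes above 0) and 0.0063 without KD.253 (15), against -0.45 without KD.255 (7) and -0.48 without KD.249 (8). None passed limma, edgeR or DESeq2 (0% of all tested genes in each), and none had an unadjusted p under 0.05 by any of the 3, against 0.883% of all tested genes with limma. A dependence of the vector difference on training was not detectable at this depth.

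Trained minus home cage, averaged over vector, had a median of -0.23 over the 30 genes, and 9 were above 0, against 55.1% of all tested genes. The median was -0.062 without KD.251 (14 genes above 0), -0.076 without KD.253 (9) and -0.35 without KD.249 (3). None passed limma, edgeR or DESeq2, against 0% with limma, 0% with edgeR and 0.0394% higher and 0.0237% lower with DESeq2. With limma 2 genes had an unadjusted p under 0.05, against 4.86% of all tested genes. They were Olfml3 at -0.76 (SE 0.18) and Cd68 at -0.82 (SE 0.36). The same count was 3 with edgeR, against 6.92%, and 2 with DESeq2, against 6.14%. Olfml3 had 93.1 and 80.8 in trained knockdown libraries, against 163 and 171 in home cage knockdown libraries, and 65.2 and 52.6 in trained control libraries, against 98.3 and 78.9 in home cage control libraries. Trained libraries were lower within each vector, and adjusted p was 0.873 with limma and 0.710 with edgeR. In none of the 30 genes did all trained libraries lie above all home cage libraries (1.65% of all tested genes) or below them (1.62%).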

How the data were processed

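Polyadenylated RNA of the dorsal hippocampus was sequenced from 8 libraries, 2 in each of 4 groups, from ScriptSeq v2 libraries on a NextSeq 500, per the labels' protocols. Per the submitters' processing notes, build mm10 was used with STAR 2.3.0, HTSeq 0.6.1, DESeq, bedtools and bcl2fastq 02.14.01.07. Neither the gene annotation nor the strand setting is given in the sources used here. The authors deposited a normalized signal per gene and library, and within each library 100% of values were whole multiples of 1 step (relative tolerance 1e-06). Dividing by that step gave whole reads per gene. The 5 summary entries of the counter (of 24503 entries) stayed out of all tests. Reads in no gene came to 16.4% to 20.3% per library.

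The deposited values plus a pseudocount of 1 were put on the log2 scale, and genes averaging 10 or more in the 8 libraries were fitted in R 4.3.3 with limma 3.58.1 and its trend option, with vector and training as terms for the averaged comparisons and 4 group means for the others. Benjamini-Hochberg adjustment covered the 12681 genes tested. As alternatives, DESeq2 1.42.0 and the quasi-likelihood test of edgeR 4.0.16 with TMM were run on the recovered reads, beside other pseudocounts, filters, scalings, library weights and libraries left out. The scripts were checked on simulated data. The members, the roles and the further lists were chosen with earlier results of these data known, so their direction is not independent evidence. Genes named in full were the 12 members with the smallest and the 3 with the largest limma p for the averaged vector comparison, and 10 defining microglia genes; in further lists, at most 5 with the smallest p and defining markers. Jchain, Itgax, Cst7, Apoe, Il34, Irf5, Fcgr1 and Mki67 were named after their values were seen. Of 14 T and NK cell markers 13 were matched. Exon lengths and overlaps came from GENCODE M21 (GRCm38), and promoters from RefSeq.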

Additional observations from a re-analysis of the deposited data

Results flagged for a closer look

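Among the tested microglia genes, 60 groups of 4 libraries (30 genes under each vector) were examined for a library far from the other 3, and 5 were found, where chance flags about 1 in 20 groups. Itgam had 98.1 normalized read counts in KD.251, against 219 to 233 in the other knockdown libraries. Gpr34 had 31.1 in KD.255, on 2 reads, against 73.8 to 82.9 in the other knockdown libraries. Csf3r had 0 in KD.255, where up to 46.7 is possible, against 37.5 to 79.7 in the others. Among the control libraries, eGFP.254 stood apart in both remaining cases. Cd68 had 90.7 there, against 36.2 to 42.1 in the other controls, and Laptm5 had 75.6 there, against 94.7 to 97.2.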

How the results depend on the processing

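No paired analysis was possible because the deposited columns carry library numbers and none of the replicate numbers of the labels. Averaged over training, the median vector difference of the microglia genes lay between 0.58 and 1.00 (log2) over 32 alternatives. The calls moved far more, also between tools that used all libraries, and the cause was not tested.

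Microglia genes called for the vector averaged over training numbered 0 with limma under other pseudocounts, filters and TMM scaling. They numbered 4 with edgeR (122 of all genes, 0.962%), 3 with the authors' size factors (118, 0.931%), 11 with DESeq2 (195, 1.54%) and 25 with library weights in limma (820, 6.47%). Without a filter edgeR called 17 of 32 microglia genes and 555 of 18629 genes (2.98%). Those denominators hold without a filter in the comparisons below too. At a mean of at least 50 they were 18 and 9130, and elsewhere 30 and 12681. Without KD.255 and KD.251 the microglia genes called numbered 12 with limma (212, 1.67%) and 13 with edgeR (232, 1.83%, chosen after seeing the data). With eGFP.266 and eGFP.268 set apart by a term they numbered 0 with limma (0) and 1 with edgeR (113), and on the 6 libraries other than eGFP.266 and eGFP.268, 0 with limma (0) and 1 with edgeR (164, chosen after seeing the data). Leaving out each library in turn gave 0 to 12 (1 to 238 of all genes).

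In home cage mice the count of all genes called was 1 with a pseudocount of 5, 23 with edgeR and with the authors' size factors, 228 without a filter, 55 with DESeq2, 67 and 100 without the shallow libraries (limma, edgeR), 5 with the set term and 32 on the 6 libraries (edgeR). Microglia genes among them numbered 8 without a filter, 1 with DESeq2, and 3 without the shallow libraries by either tool. Single libraries left out gave 0 to 1293 genes and 0 to 3 microglia genes. The 1293 came with limma without KD.253, which left the shallow KD.255 alone in its group and assumed that it varied like the other libraries.

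In trained mice the count of all genes called was 0 with a pseudocount of 0.5, without a filter and at a mean of at least 50, 4 with edgeR, 361 without a filter in edgeR, 33 with DESeq2, 79 and 94 without the shallow libraries, 2 and 53 with the set term (limma, edgeR each) and 195 on the 6 libraries (edgeR). Microglia genes numbered 5 without a filter in edgeR, 1 with DESeq2, and 2 and 3 without the shallow libraries. Single libraries left out gave 0 to 100 genes and 0 to 2 microglia genes.

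For the difference between these effects, 8 genes were called by edgeR without a filter and 4 on the 6 libraries, and single libraries left out gave 0 to 710 genes and 0 to 1 microglia genes. For training, 77 genes were called by edgeR without a filter, 8 with DESeq2, 1 with the set term, 1 on the 6 libraries, and 2759 with library weights (7 microglia genes), and single libraries left out gave 0 to 4.

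Among named genes, 2 changed sign. P2ry13, at -0.07, stood at 0.073 with edgeR, with the authors' size factors, without a filter and with DESeq2 (0.070, 0.067 and 0.068 for these last 3), at 0.31 with library weights, at 0.10 and 0.041 without the shallow libraries (limma, edgeR), at 0.071 and 0.26 with the set term, at 0.071 and 0.28 on the 6 libraries, and between -0.28 and 0.37 with single libraries left out. Csf3r, at 0.08, stood at -0.14 with a pseudocount of 0.5, at -0.10 with the set term and on the 6 libraries (limma), and between -0.93 and 1.72 with single libraries left out, with a 0 in KD.255 that limma takes at face value. Depth limits the genes with few reads in KD.255, Spi1, P2ry13 and Csf3r among them.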

Other observations

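Of 4 ratios between microglia genes within a library, 1 separated the vectors. The ratios were chosen after the values were seen and have no test. Ctss per Csf1r read was 4.56, 2.78, 3.58 and 2.57 in KD.249, KD.251, KD.253 and KD.255, against 1.82, 2.39, 1.64 and 1.94 in eGFP.250, eGFP.266, eGFP.254 and eGFP.268, so that every knockdown library lay above every control. The margin was narrow, because KD.255, close above eGFP.266, rested on 59 reads of Ctss and 23 of Csf1r. P2ry12 per Csf1r read was 0.579, 1.12, 0.547 and 0.391 in the same knockdown libraries, against 0.664, 0.904, 0.972 and 0.850 in the controls. The 3 knockdown libraries other than KD.251 lay below every control and KD.251 lay above every control. KD.255 rested on 9 reads of P2ry12 and 23 of Csf1r. The 2 other ratios computed overlapped between vectors. Mpeg1 per Csf1r read was 0.527 to 1.32 in knockdown libraries and 0.405 to 0.708 in control libraries, and Cx3cr1 per Csf1r read was 0.696 to 1.03 in knockdown libraries and 0.749 to 1.24 in control libraries.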
